A study of Mus musculus with 2 samples.

Results

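The Krüppel-like factors examined here were 9 transcription factor genes, Klf2, Klf3, Klf4, Klf6, Klf7, Klf9, Klf10, Klf12 and Klf13. They were chosen by gene name out of 22036 named genes, and every one had a row in the count table. The series compared 2 cultures of mouse CD4 T cells, 1 labelled pathogenic Th17 and 1 labelled non-pathogenic Th17, and its title names Foxo1 and TGFβ1 as the subject. Both cultures began with CD4 T cells taken from the spleen and lymph nodes of wild-type animals, and both were stimulated with plate-bound antibodies to CD3 (10 μg/mL) and CD28 (5 μg/mL) in the presence of antibodies to IFNγ and IL-4. IL-6 was added to both at 20 ng/mL. The culture labelled pathogenic also received 20 ng/mL of activin A, a ligand of the TGF-β family, and is called the activin A library below. The culture labelled non-pathogenic received 2 ng/mL of TGFβ1 (rhTGFβ1 in the labels) in its place and is called the TGFβ1 library. Cells were lysed after 24 h. The sources used here do not give strain, age or number of mice. Neither resting cells nor an activated culture without these ligands were analysed here, so each value below is a level in an activated culture.

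Each culture gave 1 library, and the counts over named genes summed to 30877656 for activin A and 33470161 for TGFβ1. There is therefore no replicate check and no p-value, and the ranges in parentheses are 95% counting intervals of these libraries, which do not cover the spread between cultures. CD4 T cell markers were abundant, as with Cd4 at 6886 and 7683 counts and Cd3e at 5169 and 8423 counts in the activin A and TGFβ1 library. The IL-17 genes that define Th17 cells were present, with Il17f at 12180 and 19634 counts and Il17a at 243 and 207 counts. Of the genes that mark other cells, Csf1r, Cd14, Cdh5 and Kdr were listed at 0 in both libraries, and Cd8a had 8 counts in each. Others had counts, with 51 and 55 for Cd8b1, 110 and 123 for Cd68, 253 and 289 for Pecam1 and 127 and 229 for Pdpn in the activin A and TGFβ1 library. Klrd1, of the NK cell list, had 47 and 98 counts and was 1.91-fold higher in the TGFβ1 library, and Itgam and Itgax had 24 and 20 counts there and were listed at 0 in the activin A library. The part of such cells in the results was not tested.

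Krüppel-like factors bind GC-rich and CACCC sequences through a set of C-terminal zinc fingers, and they differ in the regions that recruit other proteins. The family is commonly divided into CtBP-binding repressors (Klf3, Klf8 and Klf12), a group with many activators (Klf1, Klf2, Klf4, Klf5, Klf6 and Klf7) and Sin3-binding repressors (Klf9, Klf10, Klf11, Klf13, Klf14 and Klf16). In T cells the family is best known through Klf2, which is high in resting naive cells, maintains the homing receptors for lymph node entry and exit, is under the control of Foxo1 and is lost when the T cell receptor is engaged.

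The members lie on 9 different chromosomes, and the promoters of 8 of them had an entry in RefSeq (GRCm38.p6, the assembly of mm10). The promoter of Klf10 was not examined. Those of Klf2, Klf9 and Klf3 are shown because Klf2 had the largest difference between the libraries and the others held the FOXO and SMAD matches. Each run is the 250 bases before the RefSeq start, on the strand of the gene, and capitals mark matches to the motifs listed after them.
Klf2, chr8:72318812-72319061, plus strand: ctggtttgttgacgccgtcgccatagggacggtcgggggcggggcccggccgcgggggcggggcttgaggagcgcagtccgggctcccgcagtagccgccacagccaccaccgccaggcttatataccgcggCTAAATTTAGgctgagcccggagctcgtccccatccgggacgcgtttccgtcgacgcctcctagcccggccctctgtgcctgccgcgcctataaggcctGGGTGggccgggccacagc
Klf9, chr19:23140976-23141225, plus strand: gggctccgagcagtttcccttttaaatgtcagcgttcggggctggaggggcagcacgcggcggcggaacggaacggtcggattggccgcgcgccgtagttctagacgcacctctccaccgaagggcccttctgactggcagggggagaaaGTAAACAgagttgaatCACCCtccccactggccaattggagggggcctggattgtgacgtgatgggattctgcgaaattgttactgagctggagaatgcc
Klf3, chr5:64803271-64803520, plus strand: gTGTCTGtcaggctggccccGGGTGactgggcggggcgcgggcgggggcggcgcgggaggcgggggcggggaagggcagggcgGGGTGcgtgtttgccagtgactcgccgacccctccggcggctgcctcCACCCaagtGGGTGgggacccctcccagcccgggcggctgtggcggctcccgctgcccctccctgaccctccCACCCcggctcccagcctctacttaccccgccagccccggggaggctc

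Both strands were searched for GTAAACA (FOXO), TATTTAT (MEF2), CAGACA (SMAD) and CACCC (Krüppel-like factors). A loose form of the MEF2 palindrome (CTA, any 4 bases, TAG) was added after the Klf2 promoter was seen. The FOXO letters occurred in 1 member, Klf9, starting 100 bases before its start, and in 3.17% of all 32851 promoter windows of this length. The loose palindrome occurred in 1 member, Klf2, starting 118 bases before its start, and in 3.2% of windows. The 4 middle bases in Klf2 are AATT. The 3.2% takes in any 4 middle bases, and windows with only A or T there were not counted apart. TATTTAT was in none of the 8 member windows and in 5.17% of all windows. The SMAD letters were in 1 member, Klf3, and in 17.1% of windows. CACCC or its complement was in 6 of the 8 members, with 5 matches in Klf3, and in 52.0% of windows. The RefSeq start lies inside the annotated gene span for some members. The windows of Klf7 and Klf12 are wholly within that span, and those of Klf2, Klf3 and Klf6 in part. The CACCC matches of Klf2, Klf7 and Klf12, and some of those of Klf3, lie within the span. These matches describe letters in the window and say nothing of binding.

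Among the members, Klf6, Klf13, Klf10 and Klf2 were the abundant transcripts in both libraries, and the rest were low. Per transcript length (FPKM, fragments per kilobase of transcript scaled to library size), the order in the activin A library was Klf6 at 22.2, Klf13 at 15.3, Klf10 at 13.1, Klf2 at 6.60, Klf9 at 2.22, Klf3 at 1.97, Klf7 at 1.73 and Klf4 at 0.328. In the TGFβ1 library Klf10 came first at 20.4 FPKM, followed by Klf6 at 16.1, Klf13 at 13.2, Klf2 at 12.5, Klf7 at 1.81, Klf9 at 1.54, Klf3 at 1.36 and Klf4 at 0.207. The median expressed gene had 11.3 FPKM in each library, so Klf2 lay below that level in the activin A library and above it in the TGFβ1 library. Klf9 and Klf3, and Klf3 and Klf7, were neighbours with overlapping counting intervals in the activin A library. Klf13 and Klf2, Klf7 and Klf9, and Klf9 and Klf3 were such neighbours in the TGFβ1 library.

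**Figure D1:**
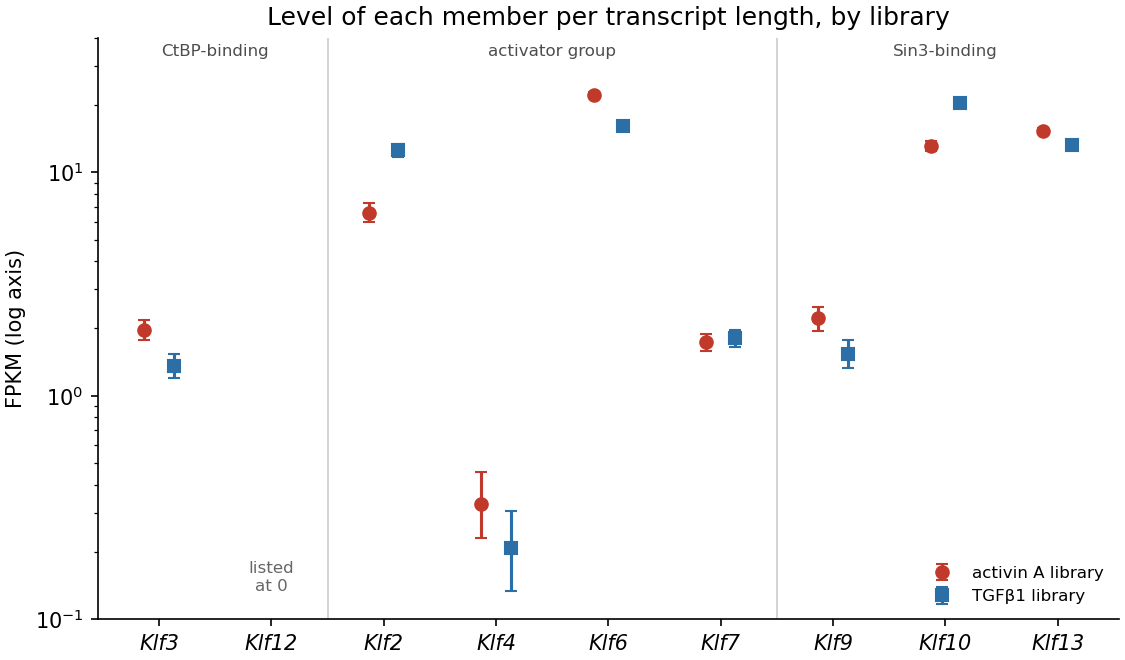
Level of each member in FPKM (log axis) in the activin A (circles) and TGFβ1 (squares) library, with 95% Poisson counting intervals and 1 library per condition. Klf6 is highest in the activin A library at 22.2 and Klf10 in the TGFβ1 library at 20.4, while Klf12 is listed at 0 in both.

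The leading place of Klf10 in the TGFβ1 library depends on the transcript length used. With counts divided by the annotated exonic bases of each gene, Klf6 had 588 counts per kilobase there, Klf10 560, Klf2 476 and Klf13 426. In the activin A library the same 4 genes kept their FPKM order, at 752 for Klf6, 458 for Klf13, 332 for Klf10 and 233 for Klf2.

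The members together were about as abundant in both libraries, while their makeup differed. Their summed level was 313 CPM (counts scaled to library size) in the activin A and 299 CPM in the TGFβ1 library, or 63.4 and 67.1 as summed FPKM. Klf6 took 34.9% of the summed FPKM in the activin A and 23.9% in the TGFβ1 library, and Klf13 took 24.1% and 19.7%. Klf10 took 20.7% and 30.4%, and Klf2 took 10.4% and 18.6%. The FPKM of Klf6 was 3.36 times that of Klf2 in the activin A library and 1.28 times in the TGFβ1 library. In these bulk libraries, fewer cells with a transcript and less of it per cell cannot be told apart.

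**Figure D2:**
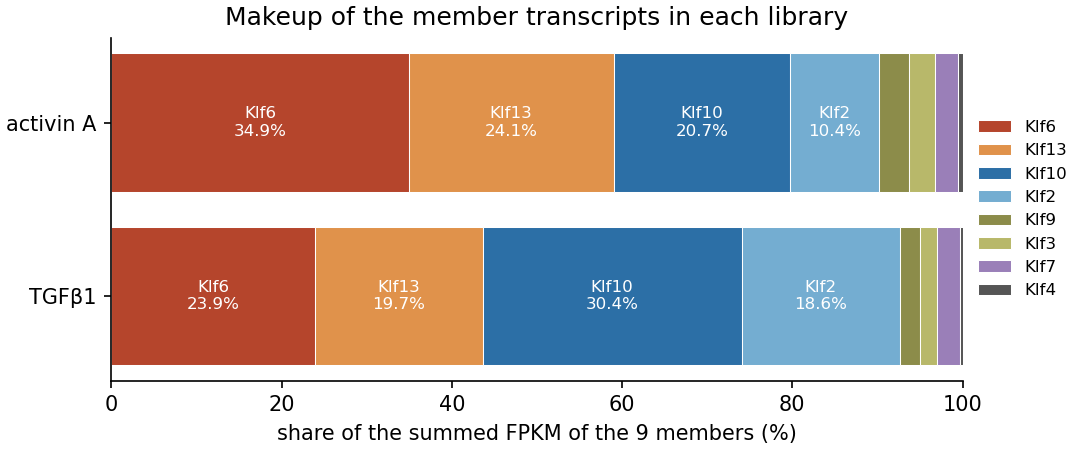
Share of the summed FPKM of the 9 members taken by each, in percent, in the activin A (upper bar) and TGFβ1 (lower bar) library. Klf10 and Klf2 take 30.4% and 18.6% in the TGFβ1 library against 20.7% and 10.4% in the activin A library.

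Of the 9 members, 7 passed a filter that asked for 1 CPM or more on average, Klf4 lay just under it with a mean of 0.956 CPM and Klf12 was listed at 0. Among the 7, 1 member, Klf3, was at least 1.5-fold higher in the activin A library, a size that 7.2% of the 10597 expressed genes reached in that direction. A further 2, Klf2 and Klf10, were at least 1.5-fold higher in the TGFβ1 library, which 5.76% of expressed genes were. None was 2-fold higher in the activin A library (2.25% of genes) or in the TGFβ1 library (1.95%). The counting interval lay above equal levels for 4 members and below for 2, but it did so for 33% and 34% of expressed genes, so that at these depths it sets few genes apart. The median log2 ratio of the 7 was 0.21, against −0.0045 over all expressed genes, of which 49.4% had a ratio above 1.

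**Figure D3:**
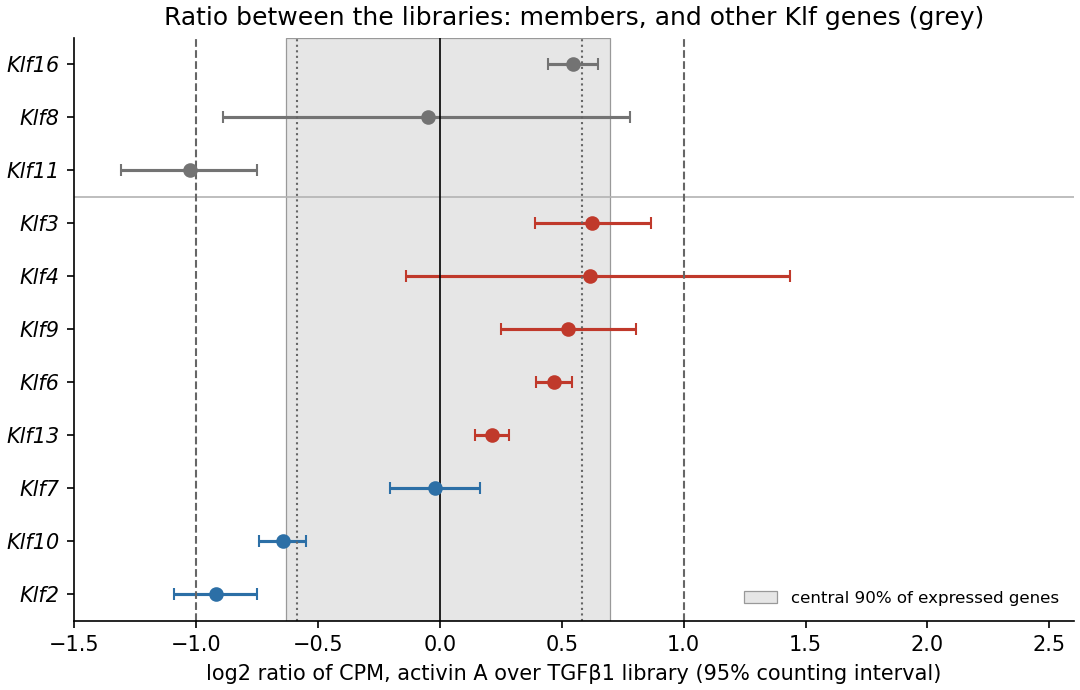
Log2 ratio of CPM, activin A over TGFβ1 library, for each member with counts (coloured) and for Klf11, Klf8 and Klf16 (grey), with 95% counting intervals. Dotted lines mark 1.5-fold, dashed lines 2-fold and the shaded band the central 90% of expressed genes (−0.63 to 0.70), with only Klf2, Klf10 and Klf11 to its left.

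The activator group held the largest difference, that of Klf2, and the member with the highest FPKM in the activin A library, Klf6. Klf2 (ENSMUSG00000055148, mm10 chromosome 8, 72319033 to 72321656, plus strand), whose promoter is shown above, had 430 counts in the activin A and 879 in the TGFβ1 library. It was 1.89-fold higher in the TGFβ1 library (1.68 to 2.13), and 2.44% of expressed genes had a lower log2 ratio than its −0.92. With a trend on transcript length and GC removed, its log2 ratio was −1.07, past 2-fold.

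Klf6 (ENSMUSG00000000078, chromosome 13, 5861482 to 5870394, plus strand), an immediate-early gene of growth and injury responses, had 3303 counts in the activin A and 2580 in the TGFβ1 library. It was 1.38-fold higher in the activin A library (1.31 to 1.46), at the 89.6th percentile of log2 ratios. Klf2 and Klf6 thus lay on opposite sides, with log2 ratios of −0.92 (−1.09 to −0.75) and 0.47 (0.39 to 0.54).

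Klf4 (ENSMUSG00000003032, chromosome 4, 55527143 to 55532466, minus strand), a reprogramming factor that restrains T cell proliferation, was close to the limit of measurement. It had 36 counts in the activin A and 25 in the TGFβ1 library, and its log2 ratio of 0.62 had an interval (−0.14 to 1.44) that takes in equal levels and 2-fold alike. Klf2 had 20.1 times the FPKM of Klf4 in the activin A library and 60.4 times in the TGFβ1 library. Both genes are also expressed by endothelium, where Klf2 and Klf4 act together, and Klf4 by monocytes. Of the 6 endothelial and stromal markers, Cdh5, Kdr, Col1a1 and Col3a1 were listed at 0 in both libraries. The list summed to 12.3 CPM in the activin A and 15.5 CPM in the TGFβ1 library, all of it from Pecam1 and Pdpn. Of the 6 macrophage and monocyte markers, Csf1r, Adgre1 and Cd14 were at 0 in both, and the list summed to 3.78 and 4.58 CPM.

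Klf7 (ENSMUSG00000025959, chromosome 1, 64029447 to 64122282, minus strand), named for its broad expression, was the member with the smallest difference. It had 469 counts in the activin A and 514 in the TGFβ1 library, with a log2 ratio of −0.02 (−0.20 to 0.16), so a difference beyond 1.15-fold in favour of the TGFβ1 library lies outside its interval.

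In the CtBP-binding group, Klf3 was measured and Klf12 was listed at 0. Klf3 (ENSMUSG00000029178, chromosome 5, 64803388 to 64832901, plus strand), a repressor that often opposes activating family members at shared sites, had 363 counts in the activin A and 254 in the TGFβ1 library. It was 1.54-fold higher in the activin A library (1.31 to 1.82), and by FPKM its log2 ratio was 0.50 in place of 0.63, which falls short of 1.5-fold. Klf12 (ENSMUSG00000072294, chromosome 14, 99870632 to 100284679, minus strand), a repressor of the AP-2α gene, was listed at 0 counts in both libraries. By counting error alone, a count of 0 allows up to 0.0970 CPM in the activin A and 0.0898 CPM in the TGFβ1 library, the level of 3 counts. Zeros were more frequent in these tables than such error gives, however. Of 850 genes with 11 to 30 counts in the activin A library, 57 (6.71%) were listed at 0 in the TGFβ1 library, and of 900 with 11 to 30 counts in the TGFβ1 library, 87 (9.67%) were at 0 in the activin A library. A gene listed at 0 can therefore have a low level that these tables do not show.

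The Sin3-binding members went both ways. Klf10 (ENSMUSG00000037465, chromosome 15, 38291463 to 38300706, minus strand), also called TGF-β inducible early gene 1 and tied in CD4 T cells to Smad7 and Foxp3, had 1386 counts in the activin A and 2342 in the TGFβ1 library. It was 1.56-fold higher in the TGFβ1 library (1.46 to 1.67), and 4.89% of expressed genes had a lower log2 ratio than its −0.64. With the length and GC trend removed, its log2 ratio was −0.58, just short of 1.5-fold. Klf9 (ENSMUSG00000033863, chromosome 19, 23141226 to 23168134, plus strand), a gene induced by thyroid and glucocorticoid hormones, had 256 counts in the activin A and 192 in the TGFβ1 library. It was 1.44-fold higher in the activin A library (1.19 to 1.75). Klf13 (ENSMUSG00000052040, chromosome 7, 63886351 to 63938915, minus strand), known in T cells as a late activator of the chemokine gene Ccl5, had 3446 counts in the activin A and 3210 in the TGFβ1 library. It was 1.16-fold higher in the activin A library (1.11 to 1.22), the smallest difference among the members whose interval left out equal levels. Ccl5 itself was listed at 0 in both libraries.

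The order of some members within a library differed between the libraries. The FPKM of Klf13 was 1.16 times that of Klf10 in the activin A library and 0.650 times in the TGFβ1 library. The FPKM of Klf3 was 0.888 and 0.883 times that of Klf9, the same order in both. Klf6 had 1.69 times the FPKM of Klf10 in the activin A library and 0.788 times in the TGFβ1 library. By counts per kilobase of exons, however, Klf6 was above Klf10 in both, at 752 against 332 with activin A and 588 against 560 with TGFβ1.

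**Figure D4:**
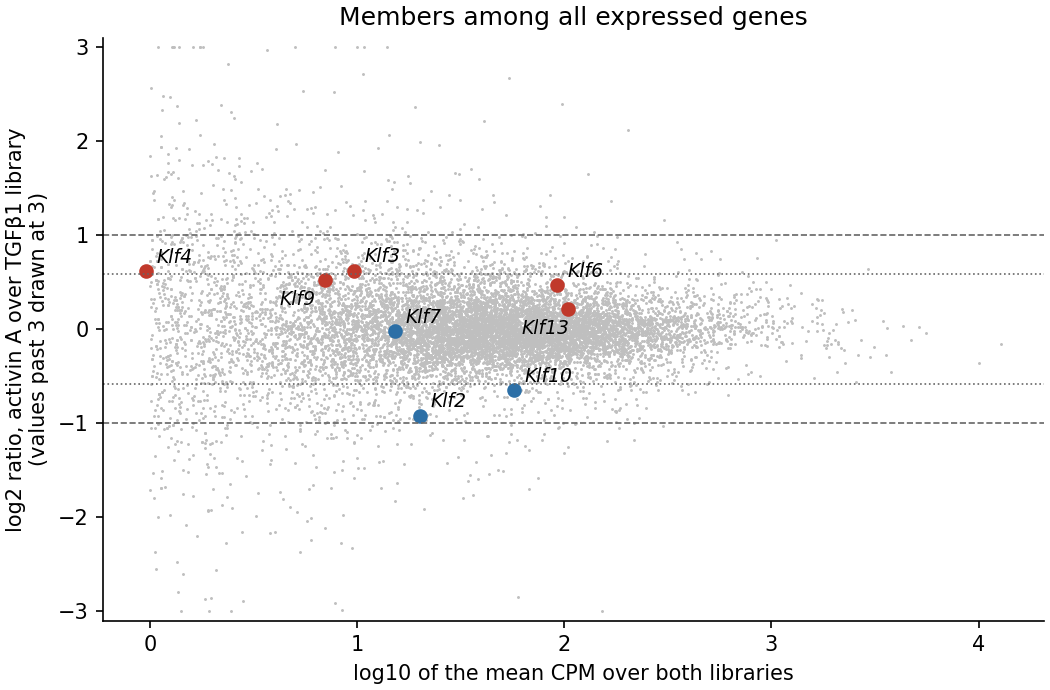
Log2 ratio, activin A over TGFβ1 library, against the log10 of the mean CPM for all 10597 expressed genes (grey, ratios past 3 drawn at 3) and the 8 members with counts (coloured). Klf2 and Klf10 lie under the lower dotted line of 1.5-fold at −0.92 and −0.64, while Klf6 and Klf13 lie farthest to the right, above 0.

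Of 8 further family genes, Klf11 and Klf16 passed the filter, and each lay on the same side as its closest relatives among the members. Klf11, the TGF-β inducible early gene 2 and nearest relative of Klf10, had 158 counts in the activin A and 348 in the TGFβ1 library and was 2.03-fold higher in the TGFβ1 library (1.68 to 2.48). Its FPKM stayed far below that of Klf10, which was 12.0 times higher in the activin A and 9.11 times higher in the TGFβ1 library. Klf16, a relative of Klf9 and Klf13, had 1775 counts in the activin A and 1314 in the TGFβ1 library and was 1.46-fold higher in the activin A library (1.36 to 1.57). At 18.8 FPKM in the activin A library it stood between Klf6 and Klf13, though it is not among the members. Klf8, of the CtBP-binding group, was under the filter at 25 counts with activin A and 28 with TGFβ1, and its log2 ratio was −0.05 (−0.89 to 0.78). The erythroid factor gene Klf1 had 22 counts in the activin A library and was listed at 0 in the TGFβ1 library. Set against a floor of 3 counts in the TGFβ1 library, it was 7.93-fold higher. The counting interval of its ratio starts at 5.92-fold. Given the zeros described above, this difference is uncertain. The summed level of 5 erythroid markers was 2.07 CPM in the activin A and 2.96 CPM in the TGFβ1 library, and its part in the Klf1 counts was not tested. Klf15 and Klf17 were listed at 0 in both libraries, Klf5 had 5 and 0 counts, and Klf14 had 0 and 2.

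The related SP factors, which bind the same GC-rich boxes, were nearly level. Of 9 genes, 4 passed the filter and none reached 1.5-fold in either direction. Over all expressed genes, 7.2% reached it in favour of activin A and 5.76% in favour of TGFβ1. A count of none therefore says little in lists this short. The log2 ratios of the 4 SP genes ran from −0.09 (−0.15 to −0.04) for Sp3 to 0.17 (0.12 to 0.22) for Sp1, with a median of 0.062. Corepressors bound by the repressor members were close to level as well. Of 7 genes, 6 passed the filter, with none past 1.5-fold by CPM. Their median log2 ratio was 0.046, against −0.0045 over all expressed genes. Sin3b, a scaffold of the Sin3 complex, had the highest ratio, 1.27-fold in favour of the activin A library (1.20 to 1.35), but its log2 ratio by FPKM was 0.61, past 1.5-fold, in place of 0.34. Hdac2, a histone deacetylase gene, had the lowest log2 ratio of the list at −0.13 (−0.18 to −0.08), and Sin3a had a log2 ratio of 0.0089 (−0.048 to 0.066). Ctbp1, the corepressor partner of Klf3, had 6436 and 6568 counts in the activin A and TGFβ1 library, while Ctbp2 had 30 and 34.

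Of the genes that act on Klf2, through its transcription or the turnover of its protein, none reached 1.5-fold. Over all expressed genes, 7.2% did in favour of activin A and 5.76% in favour of TGFβ1. Of 10 list genes that passed the filter, 8 had a ratio below 1, while 49.4% of all expressed genes had a ratio above 1. The median log2 ratio was −0.14, against −0.0045 over all expressed genes. The list joins genes of Klf2 transcription with genes of protein turnover, Smurf1 and Wwp1 among the latter. Its count and median therefore have no single direction for Klf2. Among the 8, the intervals of Mef2d and of Map2k5, at −0.02 (−0.16 to 0.11), took in equal levels. Foxo1, an activator of Klf2 in naive T cells, had 6581 counts in the activin A and 10077 in the TGFβ1 library and was 1.42-fold higher in the TGFβ1 library (1.37 to 1.46). Its relative Foxo3 was 1.26-fold higher in the activin A library (1.18 to 1.36). Mapk7, which encodes the kinase ERK5 that acts through MEF2 factors on Klf2, was 1.38-fold higher in the activin A library (1.26 to 1.51). Of the MEF2 genes, Mef2a was 1.27-fold higher in the TGFβ1 library (1.20 to 1.34), Mef2d had a log2 ratio of −0.0050 (−0.072 to 0.062) and Mef2c was listed at 0. Smurf1, a ubiquitin ligase gene, was 1.44-fold higher in the TGFβ1 library (1.33 to 1.55), and Wwp1, a ligase that binds the Klf2 protein, was 1.08-fold higher there (1.01 to 1.15).

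Of the homing and egress genes that depend on Klf2, 3 of 5 were higher in the TGFβ1 library with intervals that leave out equal levels. Klf2 was on the same side, at a larger ratio, but so were the intervals of 34% of all expressed genes. Of the 5 genes, 4 had a ratio below 1. None reached 1.5-fold, which 7.2% of expressed genes did in favour of activin A and 5.76% in favour of TGFβ1. The median log2 ratio was −0.33, against −0.0045 over all expressed genes, of which 49.4% had a ratio above 1. Ccr7, the receptor for entry into lymph nodes, had 8490 counts in the activin A and 13372 in the TGFβ1 library and was 1.46-fold higher in the TGFβ1 library, at a log2 ratio of −0.54 (−0.58 to −0.50). S1pr1, the egress receptor and a direct Klf2 target, was 1.26-fold higher there (1.16 to 1.37). For S1pr4 and the integrin gene Itgb7 the intervals took in equal levels, with log2 ratios of −0.13 (−0.32 to 0.04) and 0.01 (−0.05 to 0.08).

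TGF-β pathway genes tied to Klf10 were mostly higher in the TGFβ1 culture, as Klf10 was. Of 9 genes, 7 had a ratio below 1, while 49.4% of all expressed genes had a ratio above 1. At least 1.5-fold higher in the TGFβ1 library were 3 of the 9, a size that 5.76% of expressed genes reached in that direction. The median log2 ratio of the list was −0.36, against −0.0045 over all expressed genes. Like the other related lists, this one was chosen with earlier results of these data known. Its shares are therefore no independent evidence about Klf10. Foxp3, the regulatory T cell factor gene, was 2.37-fold higher in the TGFβ1 library (2.22 to 2.54), and the receptor genes Tgfbr1 and Tgfbr2 were 1.74-fold (1.68 to 1.80) and 1.52-fold (1.45 to 1.60) higher there. Smad7, the feedback inhibitor, was 1.30-fold higher there (1.19 to 1.43). Tgfb1 was the highest of the list on the other side, 1.09-fold higher in the activin A library (1.05 to 1.13), and the interval of Smad3 took in equal levels at a log2 ratio of 0.05 (−0.0043 to 0.11).

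Cell cycle and quiescence genes tied to Klf2 and Klf4 were spread on both sides, 5 above and 3 below equal levels among the 8 that passed the filter. Over all expressed genes, 49.4% had a ratio above 1. The median log2 ratio of the list was 0.14, against −0.0045 over all expressed genes. Ccng2, a cyclin gene of resting cells, was 2.17-fold higher in the TGFβ1 library (1.94 to 2.44), where 1.95% of expressed genes were at least 2-fold higher. The G1 cyclin genes Ccnd2 and Ccnd3 were 1.35-fold higher in the activin A library (1.33 to 1.38 and 1.30 to 1.41). Cdkn1a, the p21 gene that Klf4 activates, was 1.17-fold higher in the TGFβ1 library (1.07 to 1.27), and Myc was 1.05-fold higher in the activin A library (1.03 to 1.08).

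**Figure D5:**
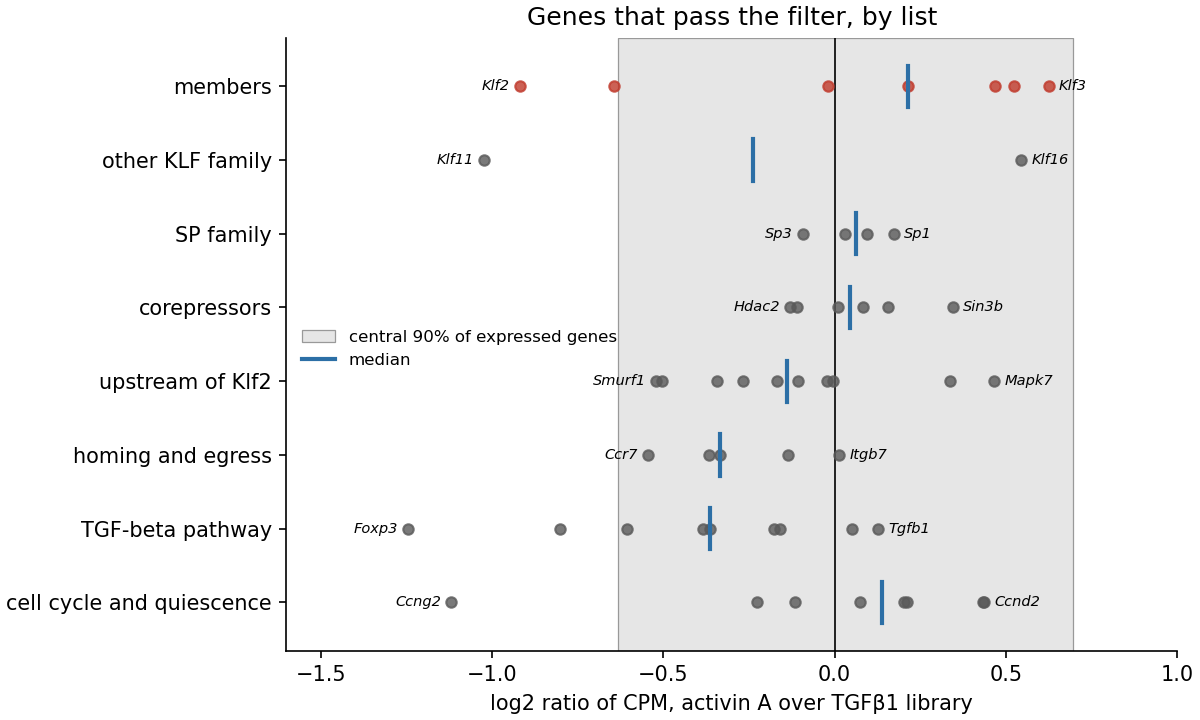
Log2 ratio, activin A over TGFβ1 library, of each gene that passed the filter (points) by list, with the list median (bars) and the central 90% of expressed genes (shaded). The medians of the homing and TGF-β lists lie at −0.33 and −0.36, and Klf11, Foxp3 and Ccng2 reach past −1.

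Of all 50-base windows in the longest coding transcript of each member, none of Klf2, Klf6, Klf7, Klf9, Klf10 or Klf12 recurred in a transcript of another gene, and at most 0.268% did, in Klf4. Exons of Klf3 overlap the opposite-strand gene Gm20033, and those of Klf7 overlap Gm26649 and Gm13748 on the opposite strand. The labels describe no strand-marking step, so reads of such pairs cannot be told apart. The 3′ UTRs ranged from 737 bases in Klf2 to 6266 bases in Klf7. The pentamer ATTTA, a part of AU-rich elements that mark unstable mRNAs, occurred 18 times in the long 3′ UTR of Klf7. That number was reached by 1.21% of 10491 expressed coding genes, but its density per kilobase by 21.4%. Per kilobase the density in Klf7 was 2.87, in Klf10 2.68, in Klf9 2.48, in Klf6 2.25, in Klf3 1.87 and in Klf2 1.36, beside a median of 1.32 over those genes. Klf4 at 1.02, Klf12 at 0.889 and Klf13 at 0.582 lay below that median.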

How the data were processed

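Polyadenylated RNA was copied from random primers, size-selected and amplified by PCR, per the labels' protocols. The authors deposited whole-number counts and FPKM values (fragments scaled to transcript length and library size) per gene, per the file headers. Per the submitters' processing notes, the genome build was mm10. Which aligner, counter and annotation were used is not given in the sources used here. Of 23682 features, 1646 had no gene name. These took 2.50% and 2.90% of counts and were left out. GENCODE M21 gave positions.

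Counts were scaled with TMM factors (edgeR 4.0.16, R 4.3.3). The ratio was the log2 of CPM, pathogenic (activin A) over non-pathogenic (TGFβ1), with a prior count of 1 in proportion to library size. Intervals are exact Clopper-Pearson 95% intervals of the share of counts in the pathogenic library, or exact Poisson intervals for levels. They cover counting error only, since amplified reads carried no molecular identifiers and are not independent. Counts of 2 were 3.88 and 4.57 times as frequent as counts of 1, so intervals can be too narrow. Expressed genes had a mean of at least 1 CPM. With 1 library per condition no test was made. Genes were compared with each other by FPKM. The members and related lists were chosen with earlier results of these data known, and all members are named. The remaining list genes named include those with the largest ratio in each direction. List counts and medians include a few genes that are not reported here. The ratio and interval code was tested on simulated counts with counting error only. Such a test checks the code and cannot show that the intervals hold for these libraries. Alternatives were other scalings (including DESeq2 1.42.0 size factors), a prior count of 5, FPKM (pseudocount 0.1), other filters and removal of a length and GC trend.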

Additional observations from a re-analysis of the deposited data

How the results depend on the processing

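The log2 ratios of Klf2, Klf3, Klf4, Klf6, Klf9, Klf10 and Klf13 kept their side under all 7 alternatives of scaling, library size, prior count, FPKM and the length and GC trend. That of Klf7 ran from −0.059 to 0.0023. Removing the length and GC trend moved Klf6 to 0.54, and left 1 member at least 1.5-fold and 1 at least 2-fold higher in the TGFβ1 library. By FPKM, 0 members were at least 1.5-fold higher in the activin A library, and with no filter 2 were, since Klf4 then counted. With no filter the median of the other family genes turned from −0.24 to 0.25, as genes with few counts entered it. Over all genes, a filter of 5 CPM left 466 and 384 genes at least 1.5-fold and 96 and 101 at least 2-fold higher in the activin A and TGFβ1 library, and no filter 1914 and 1738 at 1.5-fold and 1192 and 1136 at 2-fold. Ordered by counts per kilobase of exons, Klf7, Klf9 and Klf3 ranked 5, 6 and 7 in the activin A library, and Klf6, Klf10, Klf2 and Klf13 ranked 1, 2, 3 and 4 in the TGFβ1 library. No paired analysis was possible because each condition has 1 library. Depth limits Klf4 most, at 36 and 25 counts.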
